A study of Homo sapiens with 48 samples.

Results

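The genes for the proteins of the cytosolic ribosome were followed across 16 groups of human cells, before and after a DNA-damaging drug made them senescent. Its members were the protein-coding genes of the count table whose symbol is RPL or RPS followed by a number and at most 1 letter, together with RPSA, RPLP0, RPLP1 and RPLP2. RPS27L, the Y-linked copies of RPS4X, the S6 kinase genes, other paralogs whose symbol ends in L, and pseudogenes were left out. The rule gave 77 genes, 46 for the large and 31 for the small subunit, out of 48898 genes in the table, of which 19428 are protein-coding. All 77 passed the filter on low counts in every comparison.

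The study asked how mitofusin 1 (MFN1) and mitofusin 2 (MFN2), which fuse mitochondrial outer membranes, act in cells made senescent with doxorubicin, a drug that damages DNA. It used IMR-90, a line of normal human fetal lung fibroblasts, and SK-MEL-103, a human melanoma line. In the siRNA experiments, each line was transfected with control siRNA (cNEG in the labels) or siRNA against MFN1, MFN2, both (siMFN1+2) or MAVS, an antiviral adaptor of the mitochondrial outer membrane. Doxorubicin followed a day later at 200 nM for 48 h, and RNA was taken on day 7, while proliferating cells of each line had received control siRNA and no doxorubicin. In the compound experiment, IMR-90 cells kept for 7 days after the start of the same doxorubicin treatment then received MFI8 (20 µM), BI (10 µM) or DMSO, the vehicle, for 48 h, and RNA was taken on day 9. The labels give MFI8 as an inhibitor and BI as an activator of the mitofusins, and proliferating IMR-90 cells in DMSO were the control without doxorubicin. Every group held 3 libraries, all of them from cell cultures of these established lines. The labels do not say whether those libraries came from separate cultures, so the p-values measure only the spread between these libraries, which may be technical.

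Ribosomal proteins are made in equal amounts for assembly with ribosomal RNA in the nucleolus, and cells that divide spend much of their transcription on them. Their mRNAs usually start with a cytosine followed by further pyrimidines, the 5′ terminal oligopyrimidine (TOP) tract, through which the mTOR pathway and LARP1 regulate their translation and stability. When assembly is disturbed, free RPL5 and RPL11 bind MDM2 and stabilise p53, the pathway that doxorubicin also engages.

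The first bases at the annotated starts of these genes can be read for that tract. Windows of 30 bases, 10 before and 20 from the annotated start, were taken from RefSeq (GRCh38.p14) for the 62 members that matched an entry. The capitals mark the unbroken run of C and T from the start base, where that base is C and the run is at least 5 long. The sequences shown belong to members whose values the results below turn on: those that fell most after doxorubicin (RPSA, RPLP0, RPS3, RPS9), 4 that missed the threshold in IMR-90 on day 7 (RPS19, RPL22, RPL39, RPS28), the member that differed with MFN1 siRNA (RPS27), those that set the lines apart (RPS21, RPL36A) and the MDM2 partner RPL11.
RPSA (chr3:39406710-39406739, plus strand): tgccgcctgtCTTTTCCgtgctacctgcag
RPLP0 (chr12:120201092-120201121, minus strand): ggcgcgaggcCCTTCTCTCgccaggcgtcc
RPS3 (chr11:75399508-75399537, plus strand): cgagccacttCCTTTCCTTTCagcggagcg
RPS9 (chr19:54200848-54200877, plus strand): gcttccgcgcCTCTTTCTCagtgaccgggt
RPL11 (chr1:23691796-23691825, plus strand): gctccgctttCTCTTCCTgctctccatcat
RPS27 (chr1:153990752-153990781, plus strand): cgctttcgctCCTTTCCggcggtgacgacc
RPS21 (chr20:62387093-62387122, plus strand): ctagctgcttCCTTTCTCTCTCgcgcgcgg
RPS19 (chr19:41860245-41860274, plus strand): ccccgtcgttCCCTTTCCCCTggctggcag
RPL22 (chr1:6199576-6199605, minus strand): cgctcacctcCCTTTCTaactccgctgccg
RPL39 (chrX:119791611-119791640, minus strand): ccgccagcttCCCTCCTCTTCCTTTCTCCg
RPS28 (chr19:8321486-8321515, plus strand): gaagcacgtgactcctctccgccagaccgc
RPL36A (chrX:101391001-101391030, plus strand): ctcgcggtttCTTTCTTTCCgcgccgatag
Of the 62 members with a window, 46 (74.2%) had such a run at a start. The same run was found for 5.14% of all 27305 genes with a RefSeq window, whether or not they are in the count table. Among the 15102 protein-coding genes of the count table with a window it was 6.39%. Among 13 other TOP mRNAs with a window, 11 (84.6%) had it. Counted by start sites rather than genes, it was at 46 of 77 member windows (59.7%) and 1429 of all 35116 windows (4.07%). RPL39 has the longest run printed here, at 19 bases, and RPSA has 7. RPS28, RPL4, RPL32 and RPS4X had no run at any annotated start taken, which says only that these letters are not in this position of the windows.

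The libraries held between 15206115 and 79204217 counts. The siRNAs lowered their targets on the log2 scale. In IMR-90 the changes were -2.74 for MFN1, -3.20 for MFN2, -2.08 and -3.13 for the pair under siMFN1+2, and -1.52 for MAVS. In SK-MEL-103 they were -1.56, -2.29, -1.25 and -2.06, and -1.42 (edgeR quasi-likelihood test, all adjusted p below 0.05). The 8 fibroblast markers summed to between 5338 and 51270 CPM (counts scaled to a library's size) in IMR-90 libraries and to between 15.4 and 109.7 CPM in SK-MEL-103. Of the 7 melanocyte markers, MLANA, TYR, PMEL and S100B averaged under 1 CPM in every SK-MEL-103 group, while SOX10 and MITF did not. DCT averaged under 1 CPM in every doxorubicin-treated SK-MEL-103 group but not in the proliferating one. In every IMR-90 group all of these markers except MITF averaged under 1 CPM. In library 2 of proliferating IMR-90 with control siRNA, all 77 members lay below the mean of their group, with a median deviation of -0.38 on the log2 scale. Counts of called members in each comparison that uses this library are given with and without it. Shares, single-gene fold changes and relations to coding length are given only with it. Library 3 of every IMR-90 siRNA group except siMAVS carries a library number from 89 to 93 in the labels, and the other libraries of that experiment carry 19 to 35, so the later range holds 1 library of each of its groups and gives no within-range value.

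The 77 genes together took a smaller share of the counts after doxorubicin in both lines. In proliferating IMR-90 with control siRNA they made up 4.48, 2.98 and 4.72% of all counts in the 3 libraries, and after doxorubicin 2.64, 2.84 and 2.08%. Every doxorubicin library was below every proliferating one, although library 2 of each group came close to the other (2.98 and 2.84%). The group means were 4.06% ± 0.946 (SD, n = 3) and 2.52% ± 0.395 (SD, n = 3), so that the share after doxorubicin was 38.0% lower.

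In SK-MEL-103 the members held 6.48, 6.75 and 6.17% of counts in proliferating libraries and 4.19, 3.90 and 4.03% after doxorubicin. The means of 6.47% ± 0.289 (SD, n = 3) and 4.04% ± 0.145 (SD, n = 3) put the treated share 37.5% lower. In IMR-90 on day 9 in DMSO the shares were 4.57, 4.52 and 4.14% against 2.38, 2.51 and 2.39%, and the mean was 45.0% lower. The groups did not overlap in either experiment. These shares are relative to all other RNA of a library, and in bulk cultures a lower level per cell cannot be told apart from fewer cells with a high level.

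Both subunits moved together. Large subunit genes held a mean of 2.53% of counts in proliferating and 1.61% in treated IMR-90, and 3.96% and 2.52% in SK-MEL-103. Small subunit genes held 1.53% and 0.906% in IMR-90, and 2.51% and 1.52% in SK-MEL-103. Counts assigned to ribosomal protein pseudogenes stayed at 5.54 to 6.01 per 100 member counts in the group means. The share of mitochondrially encoded genes moved the other way. In IMR-90 with control siRNA its means were 1.07% in proliferating and 4.18% in treated cells, against 0.818% and 2.57% for SK-MEL-103 and 0.892% and 3.71% for the DMSO groups. With those genes taken out of the total, the day 9 doxorubicin share in DMSO was 2.52% in place of 2.43%.

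**Figure D1:**
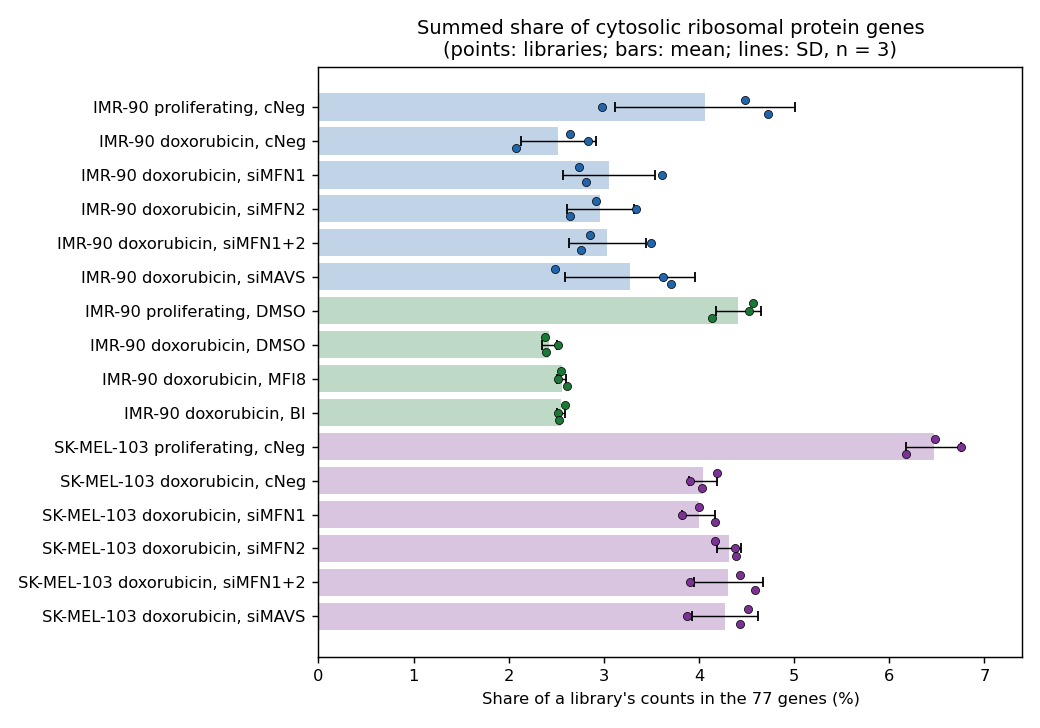
Share of a library's counts in the 77 ribosomal protein genes (x axis, percent) in each of the 16 groups (y axis), with points for libraries, bars for the group mean and lines for the SD (n = 3). The proliferating group has the highest mean of each experiment, while its library at 2.98% in IMR-90 with control siRNA lies among the doxorubicin libraries.

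Gene by gene, doxorubicin lowered most members in each of the 3 experiments and raised none. In IMR-90 on day 7, 63 of 77 fell and 0 rose (edgeR quasi-likelihood test with Benjamini-Hochberg adjustment over all genes, adjusted p below 0.05), beside 24.4% of all genes lower and 27.4% higher. The members' median log2 fold change was -0.68, that of all genes 0.09, and 56 members lay below the proliferating group in every library, as did 27.2% of all genes. In SK-MEL-103, 76 fell and 0 rose beside 30.6% lower and 29.8% higher among all genes, with a median of -0.65 against 0.03, and 73 lay below without overlap, beside 27% of all genes. In IMR-90 on day 9, 76 fell and 0 rose beside 27.1% lower and 28.8% higher, with a median of -0.92 against 0.10, and 76 lay below without overlap, beside 30.7% of all genes. DESeq2 called 60, 76 and 76 members, all lower, beside 23.6%, 30% and 26.1% of the genes to which it gave an adjusted p. The 3 experiments share no library, and 62 members fell in all 3. The share of all genes that fell in all 3 is not given here.

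The count in IMR-90 on day 7 was the one that moved with single libraries. Without library 2 of the proliferating group 71 members fell and their median was -0.86, and without library 1 of that group 52 fell with a median of -0.58. With only the 6 libraries of that comparison in the fit, in place of all 18, 41 members fell. How many of all genes fell in these fits is not given here, so these counts cannot be set beside it. MKI67, a marker of cycling cells, averaged 506 CPM in proliferating IMR-90 and 22.8 CPM after doxorubicin, 248 and 0.451 CPM in SK-MEL-103, and 525 and 54.0 CPM in the DMSO groups. The summed fibroblast markers ranged from 6658 to 20571 CPM in proliferating IMR-90 and from 24154 to 38943 CPM after doxorubicin, and from 5338 to 6894 and 12717 to 24617 CPM in DMSO, and the part of these shifts in the members' fall was not tested.

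RPSA, a small subunit protein that is also known as a laminin receptor, fell most in all 3 experiments. It lies at chr3:39406689-39412542 (GRCh38) and had 1467, 938 and 1409 CPM in proliferating IMR-90 libraries and 429, 448 and 446 CPM after doxorubicin. The treated libraries were close to each other and far below the lowest control (log2 fold change -1.49, SE 0.169, adjusted p = 5.47e-06). In SK-MEL-103 it went from 1861, 2350.0 and 1651 to 873, 770.2 and 879.6 CPM, again without overlap (log2 fold change -1.31, SE 0.155, adjusted p = 1.46e-06). On day 9 it went from 1398, 1447 and 1239 to 409, 569 and 441 CPM, with library 2 highest of the treated (log2 fold change -1.52, SE 0.152, adjusted p = 1.57e-05).

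RPS3, at the mRNA entry of the small subunit and also linked to DNA repair, had 1134, 609 and 1061 CPM in proliferating IMR-90 and 481, 547 and 360.4 CPM after doxorubicin. Only library 2 of the control came near the treated libraries (log2 fold change -0.98, SE 0.228, adjusted p = 0.00237). In SK-MEL-103 its levels were 1368, 1262 and 1147 against 641, 587 and 652 CPM (log2 fold change -1.10, SE 0.122, adjusted p = 6.59e-07), and on day 9 1099, 1087 and 974 against 379, 413 and 414 CPM (log2 fold change -1.38, SE 0.0881, adjusted p = 1.02e-06). RPS2, its neighbour at the entry channel, fell by 1.22, 0.96 and 1.34 on the log2 scale in the same order. RPS9, which helps to keep decoding accurate, fell by 1.17, 0.82 and 1.28.

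RPLP0 anchors the stalk of the large subunit that recruits elongation factors, and RPLP1 and RPLP2 are the stalk's mobile arms. RPLP0 had 2068, 1479 and 2002 CPM in proliferating IMR-90 and 740.1, 828 and 739.7 CPM after doxorubicin, with no overlap (log2 fold change -1.23, SE 0.151, adjusted p = 1.18e-05). Its levels in SK-MEL-103 were 2223, 2357 and 1978 against 1207, 1107 and 1249 CPM (log2 fold change -0.97, SE 0.132, adjusted p = 7.04e-06). RPLP0 is often used as a reference gene in PCR, as is RPL13A, an interferon-regulated large subunit protein. RPL13A had 1536, 1025 and 1609 CPM in proliferating IMR-90 and 895, 905 and 813 CPM after doxorubicin (log2 fold change -0.64, SE 0.163, adjusted p = 0.00431), and it fell by 0.56 in SK-MEL-103 and 0.91 on day 9. RPLP1 fell in all 3 experiments (log2 fold changes -0.79, -0.86 and -0.94). RPLP2 fell in SK-MEL-103 (-0.50) and on day 9 (-0.75) and had an adjusted p of 0.132 in IMR-90 on day 7 (-0.41).

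RPL5 and RPL11, which bind 5S ribosomal RNA and, when free, MDM2, both fell. RPL5 had 807, 547 and 740.4 CPM in proliferating IMR-90 and 395, 395 and 345 CPM after doxorubicin (log2 fold change -0.85, SE 0.13, adjusted p = 8.67e-05), and the lowest control library lay above all treated ones. RPL11 had 683, 394 and 699.8 against 349.5, 399 and 293 CPM (log2 fold change -0.74, SE 0.199, adjusted p = 0.00622), where library 2 of each group had nearly the same value. In SK-MEL-103 RPL5 changed by -0.95 and RPL11 by -0.63, and on day 9 by -1.08 and -1.00. RPL23, another protein reported to bind MDM2, changed by -0.63, -0.64 and -0.99 in IMR-90 day 7, SK-MEL-103 and IMR-90 day 9. CDKN1A, the p53 target that encodes p21, averaged 340 and 2088 CPM in proliferating and treated IMR-90 in the siRNA experiment, 498 and 2057 CPM in SK-MEL-103, and 430.0 and 1969 CPM in DMSO.

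RPS6, the small subunit protein phosphorylated by the S6 kinases downstream of mTOR, had 1190.2, 767 and 1134 CPM in proliferating IMR-90 and 517, 578 and 428 CPM after doxorubicin (log2 fold change -0.99, SE 0.168, adjusted p = 0.000219). All treated libraries were below the controls. RPS27, a zinc-finger protein of the small subunit, had 344, 289 and 365 against 215, 206 and 197 CPM (log2 fold change -0.66, SE 0.0963, adjusted p = 5.82e-05), also without overlap. RPS27A, made as a fusion with ubiquitin, fell by 0.51, 0.87 and 0.80, and RPL41, the smallest member at 25 residues, by 0.46, 0.52 and 0.75, in the order IMR-90 day 7, SK-MEL-103 and IMR-90 day 9. In SK-MEL-103, the large subunit proteins RPL14 (-1.08) and RPL21 (-1.07) joined RPSA and RPS3 as the members that fell most.

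**Figure D2:**
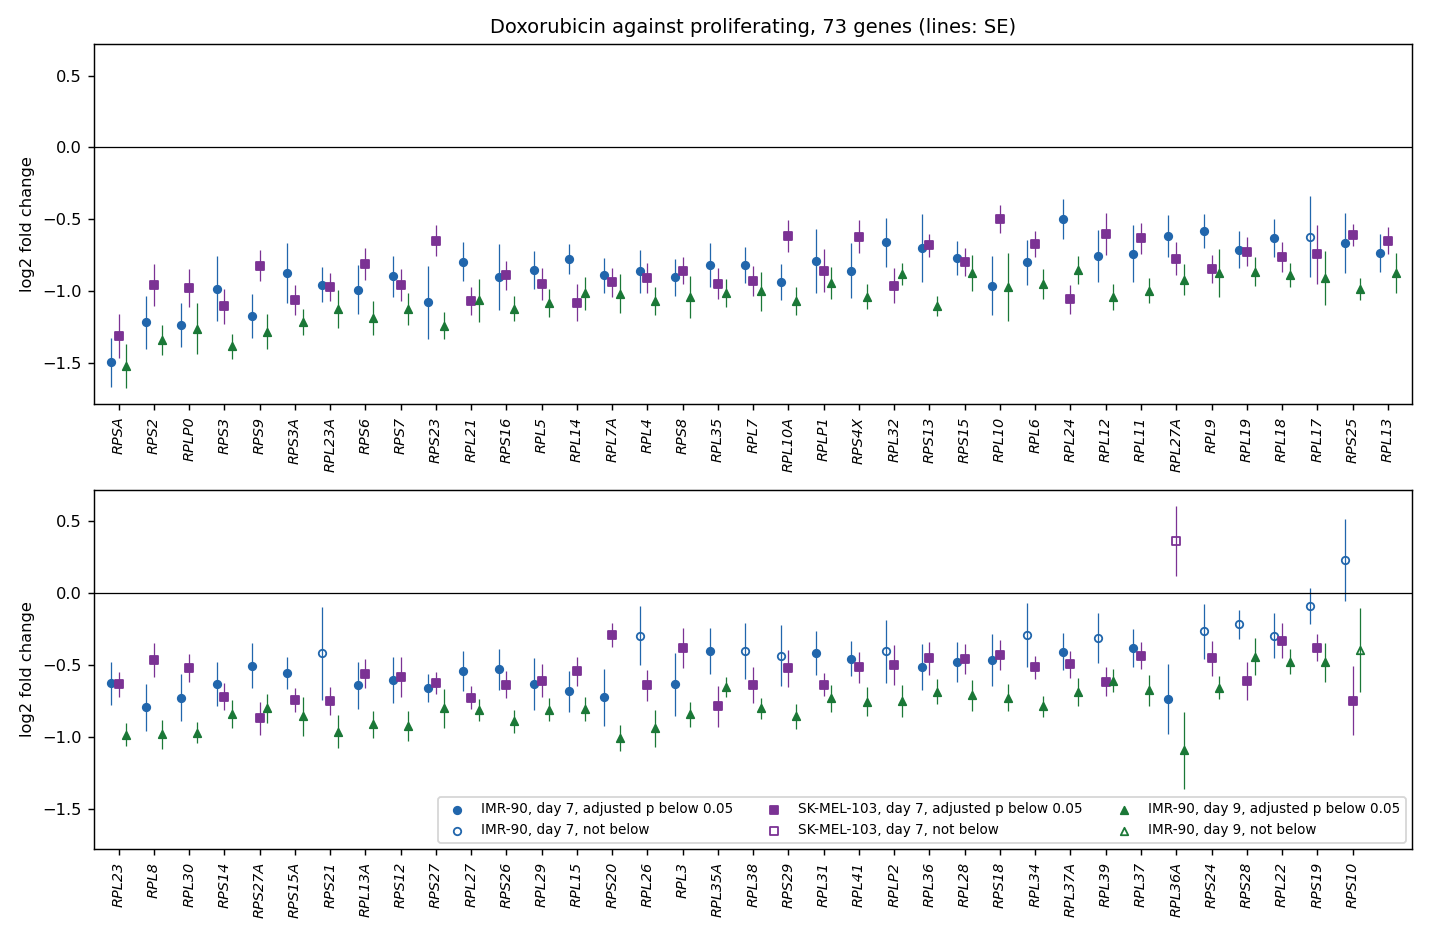
Log2 fold change of 73 of the genes between doxorubicin and proliferating cells (y axis) in IMR-90 on day 7, SK-MEL-103 on day 7 and IMR-90 on day 9, with vertical lines for the SE and filled symbols where the adjusted p is below 0.05. Genes stand along the x axis in 2 panels. Nearly all values are negative, RPSA is lowest in each experiment, and only RPS10 in IMR-90 on day 7 and RPL36A in SK-MEL-103 are above 0.

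The members that moved least were only partly the same ones in the 3 experiments. RPS19 and RPL22 missed the threshold in IMR-90 on day 7. Both were among the smallest falls that passed in SK-MEL-103 and on day 9. RPS19, a small subunit protein mutated in Diamond-Blackfan anaemia, had 564, 399 and 554 CPM in proliferating IMR-90 and 488, 426 and 479 CPM after doxorubicin, so that the groups overlapped (log2 fold change -0.09, SE 0.126, adjusted p = 0.57). On day 9 it did not overlap, at 600.2, 581 and 514 against 364, 480.2 and 364 CPM (log2 fold change -0.48, SE 0.137, adjusted p = 0.0123). In SK-MEL-103 its levels were 1131, 1305 and 1193 CPM in proliferating cells against 1002, 992 and 982 CPM after doxorubicin (log2 fold change -0.38, SE 0.0942, adjusted p = 0.00211).

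RPL22, a large subunit protein that is dispensable for translation in some tissues, had 138, 102 and 132 CPM in proliferating IMR-90 and 105, 113 and 78.6 CPM after doxorubicin, with overlap (log2 fold change -0.30, SE 0.158, adjusted p = 0.13). It fell in SK-MEL-103 (-0.33) and on day 9 (-0.48), and in both was among the 4 smallest falls that passed. RPS28 and RPL39 had log2 fold changes of -0.22 and -0.31 on day 7 in IMR-90 (adjusted p = 0.0806 and 0.142) and fell by 0.44 and 0.61 on day 9. The smallest falls that passed in IMR-90 on day 7 were those of RPL37 (-0.38), RPL35A (-0.41), RPL37A (-0.41) and RPL31 (-0.42). In SK-MEL-103 they were those of RPS20 (-0.29), RPL22, RPL3 (-0.38) and RPS19, and on day 9 those of RPS28, RPL22, RPS19 and RPL39. In all, 14 members missed the threshold in IMR-90 on day 7, 7 of each subunit, and RPL17, RPL26, RPL34, RPL38, RPS10, RPS21, RPS24 and RPS29 were among them.

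The 2 members with the lowest counts per length behaved apart. RPS10 had 1.69, 0.852 and 1.03 CPM in proliferating IMR-90 and 1.54, 1.29 and 1.49 CPM after doxorubicin (log2 fold change 0.23, SE 0.285, adjusted p = 0.52), and was the only member that missed the threshold on day 9 (log2 fold change -0.40, SE 0.293, adjusted p = 0.265). RPL36A, at chrX:101390824-101396154, was the only member that missed it in SK-MEL-103, where it had 4.57, 2.36 and 2.90 CPM in proliferating cells and 4.96, 4.79 and 4.02 CPM after doxorubicin (log2 fold change 0.36, SE 0.243, adjusted p = 0.206). Without library 1 of the proliferating group it passed as higher. Of the exonic bases of RPS10, 88.0% also belong to the readthrough gene RPS10-NUDT3 on the same strand, and 77.6% of those of RPL36A to RPL36A-HNRNPH2. The share was 68.6% for RPL17, another member with under 5 CPM per kilobase of exon, and how the authors' counting treated reads shared by genes is not given in the sources used here. The level of these 3 genes is therefore uncertain, as are those of members with many near-identical pseudogenes.

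**Figure D3:**
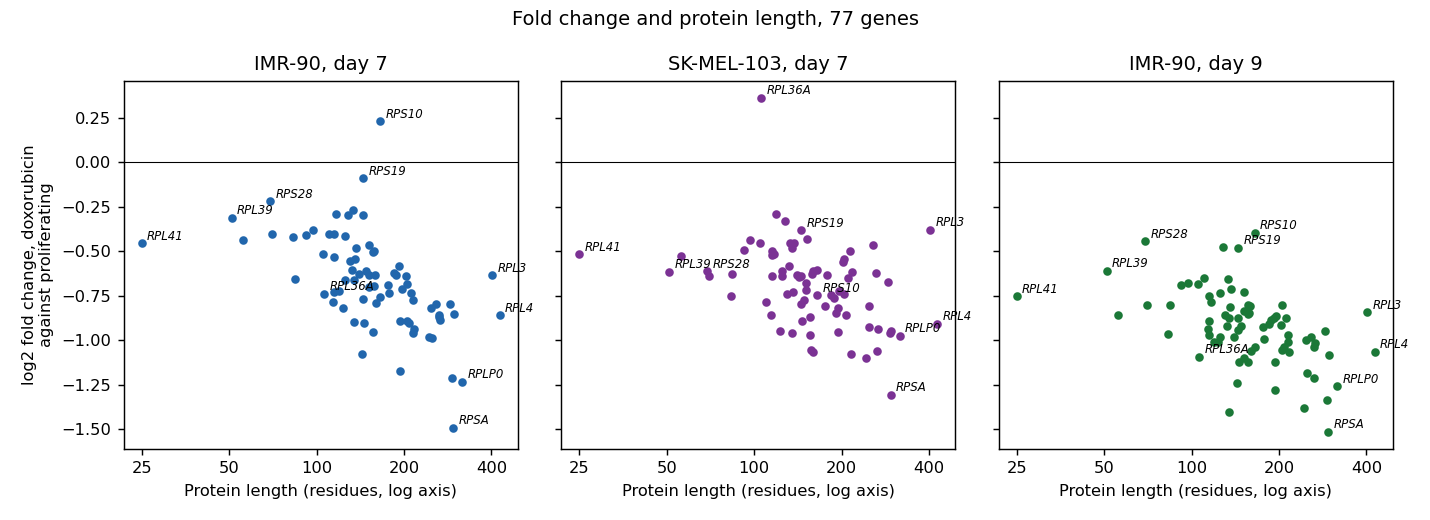
Log2 fold change after doxorubicin (y axis) against protein length in residues (x axis, log scale) for the 77 genes in the 3 experiments. The points run downwards from RPL41 (25 residues) to RPSA (295) and RPLP0 (317) in IMR-90 on day 7, with RPL3 (403) and RPL4 (427) above that trend and a looser pattern in SK-MEL-103.

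Members that encode longer proteins had lower fold changes after doxorubicin. The 26 members with the shortest coding regions, 75 to 405 bases, had median log2 fold changes of -0.45 in IMR-90 on day 7, -0.60 in SK-MEL-103 and -0.80 in IMR-90 on day 9. The 26 with the longest, 576 to 1281 bases, had medians of -0.87, -0.83 and -1.04. Across the 77 genes, the log2 fold change and the log2 coding length had Pearson's r of -0.56 (Spearman's rho -0.66) in IMR-90 on day 7, -0.39 (-0.45) in SK-MEL-103 and -0.49 (-0.54) on day 9. These are descriptions across genes, which are not independent replicates and share libraries, depth and base composition. Across all protein-coding genes tested the same r was 0.03 (n = 14299), 0.07 (n = 13309) and 0.07 (n = 14280). Single libraries also deviated from their own group's mean along coding length: over the 48 libraries, r between the members' deviation and coding length ran from -0.40 (library 1 of MFI8) to 0.28 (library 2 of MFI8). In proliferating SK-MEL-103 it was 0.27 for library 1 and -0.38 for library 3, close to the -0.39 of the doxorubicin effect in that line. The part of this spread between libraries in the relation was not tested.

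The 77 mitochondrial ribosomal proteins tested, which serve the organelle's own ribosome and carry such a pyrimidine run in 8.70% of 69 genes with a window, had r of -0.39, -0.43 and -0.32 in the same order. The length of each member's longest pyrimidine run showed little relation to the fold change over the 62 members with a window (r of 0.10, 0.06 and 0.01, rho of 0.10, 0.04 and 0.005). For the members' mean level, r was -0.41 in IMR-90 on day 7, -0.32 in SK-MEL-103 and -0.18 on day 9, and rho was -0.46, -0.14 and -0.24. The 63 members that fell in IMR-90 on day 7 had a median of 159 residues and the 14 others 122.5.

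The fold changes of the 77 genes were much alike in the IMR-90 experiments of day 7 and day 9, which share no library (Pearson's r 0.90, Spearman's rho 0.89, n = 77 genes). Between IMR-90 and SK-MEL-103 on day 7 they were less so (r 0.44, rho 0.49), and likewise between IMR-90 on day 9 and SK-MEL-103 (r 0.43, rho 0.50).

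The difference between the lines in the effect of doxorubicin was tested for each gene in 1 fit of both siRNA experiments. For RPL36A it passed, with an effect higher in SK-MEL-103 by 1.21 on the log2 scale (SE 0.352, adjusted p = 0.0131, edgeR), while 13% of all genes had an effect higher in SK-MEL-103 and 9.16% a lower one. RPL36A levels in IMR-90 were 5.19, 2.80 and 3.61 CPM in proliferating cells and 2.10, 2.33 and 2.56 CPM after doxorubicin, and there it fell (log2 fold change -0.74, SE 0.243, adjusted p = 0.0192). The other 76 members did not pass, and 8 of 77 had an unadjusted p below 0.05, as did 33.4% of all genes. DESeq2 called 4 members, with RPL36A higher and RPL24, RPS10 and RPS28 lower in SK-MEL-103, beside 10.1% of all genes higher and 13.5% lower. In edgeR with relative log expression scaling, RPL24 (-0.62) and RPS10 (-1.03) passed as lower beside RPL36A as higher, and that scaling moved the median of all genes from 0.03 to -0.13. Without library 1 of proliferating IMR-90, RPL36A no longer passed and RPL24 and RPS10 passed as lower, and without library 2 of that group 7 members passed, all higher.

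Proliferating SK-MEL-103 cells devoted more of their counts to ribosomal protein genes than proliferating IMR-90 cells. Of the 77 members, 46 were higher and 1 was lower in SK-MEL-103 (edgeR, adjusted p below 0.05), beside 23.9% of all genes higher and 28% lower. The members' median log2 fold change was 0.47, that of all genes -0.04. Without library 2 of proliferating IMR-90, 34 members were higher and 2 lower, with a median of 0.32. The shares of all genes in that fit are not given here. The labels give each line its own runs of library numbers without saying what the numbers mark, so the line and whatever they mark cannot be told apart.

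RPS21, a short small subunit protein, differed most, with 230.3, 121 and 232 CPM in IMR-90 and 533, 573 and 519.7 CPM in SK-MEL-103 (log2 fold change 1.52, SE 0.249, adjusted p = 8.51e-06). RPS19 had 564, 399 and 554 CPM in IMR-90 and 1131, 1305 and 1193 CPM in SK-MEL-103 (log2 fold change 1.30, SE 0.108, adjusted p = 3.87e-11), and neither gene overlapped between the lines. RPL13A (1.01) and RPS16 (0.97) followed. RPL5 was the exception in the other direction, with 807, 547 and 740.4 CPM in IMR-90 and 538, 472 and 382 CPM in SK-MEL-103 (log2 fold change -0.55, SE 0.122, adjusted p = 0.000426), a lower level in all 3 libraries of SK-MEL-103. RPL11, RPS6 and RPLP0 gave 0.05, 0.12 and 0.28 with adjusted p of 0.807, 0.487 and 0.0814.

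**Figure D4:**
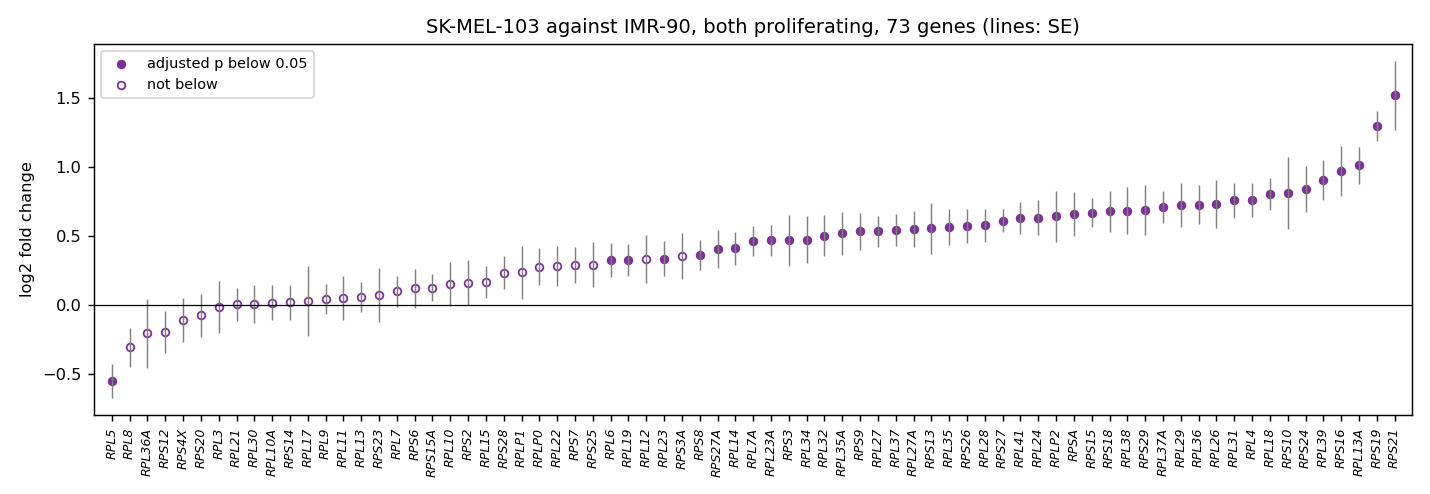
Log2 fold change (y axis) of 73 of the genes (x axis, ordered by value) between proliferating SK-MEL-103 and proliferating IMR-90, with vertical lines for the SE and filled symbols where the adjusted p is below 0.05. RPL5 stands lowest at -0.55, and RPS21 (1.52) and RPS19 (1.30) stand highest.

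In doxorubicin-treated IMR-90, the siRNAs against mitofusins and MAVS moved few ribosomal protein genes past the test, though most member values leaned above the control. With siMFN1, RPS27 rose and none of the other 76 members passed (1 higher and 0 lower of 77, edgeR), beside 0.592% of all genes higher and 0.991% lower. RPS27 had 284, 293 and 323 CPM with siMFN1 and 215, 206 and 197 CPM with control siRNA, without overlap (log2 fold change 0.54, SE 0.0962, adjusted p = 0.0132). The call was lost without library 1 of the control or library 3 of siMFN1, and 14 members had an unadjusted p below 0.05, all higher, beside 7.74% of all genes. DESeq2 called RPS27, RPSA and RPLP0, all higher, beside 2.54% of the genes to which it gave an adjusted p.

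No member passed with siMFN2 (edgeR, 0 of 77, beside 0.0944% of all genes higher and 0.131% lower), with siMFN1+2 (0 of 77, beside 0.64% higher and 0.933% lower) or with siMAVS (0 of 77, beside 0.22% higher and 0.414% lower). Members with an unadjusted p below 0.05 numbered 18, 16 and 27, all higher, beside 6.14%, 7.7% and 7.28% of all genes. DESeq2 called 2, 4 and 5 members, all higher and each time with RPS27 and RPSA among them, beside 0.946%, 2.88% and 1.65% of genes. The 4 comparisons share the same 3 control libraries. All siMAVS libraries carry library numbers of the range 19 to 35, while library 3 of the control is in the range 89 to 93. With a term for that range, RPS27 and RPSA passed with siMAVS (edgeR, adjusted p = 0.0289 and 0.0469). Both also passed with siMFN1 and siMFN1+2, and the shares of all genes in that fit are not given here. The members' median log2 fold changes were 0.24, 0.22, 0.24 and 0.30 for siMFN1, siMFN2, siMFN1+2 and siMAVS, against medians of all genes between -0.01 and 0.01. Library 3 of the control had the lowest share of the 3, and without it the members' medians were 0.17, 0.13, 0.16 and 0.22.

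RPSA showed the widest gap from the control, which had 429, 448 and 446 CPM. Its levels were 581, 723 and 779.9 CPM with siMFN1, 646, 695 and 734 with siMFN2, 625, 711 and 749 with siMFN1+2 and 557, 696 and 737 with siMAVS. All 12 siRNA libraries lay above the control libraries, and all below the proliferating ones, yet no adjusted p was below 0.05 (log2 fold changes 0.65, 0.64, 0.65 and 0.57, adjusted p = 0.0635, 0.112, 0.0618 and 0.113, edgeR). RPLP0 had 1019, 1207 and 1289 CPM with siMFN1 against 740.1, 828 and 739.7 CPM in the control (log2 fold change 0.61, SE 0.15, adjusted p = 0.057). Members above the control in every library numbered 21, 36, 38 and 42 of 77, beside 9.37%, 8.94%, 10.1% and 8.18% of all genes, with the same 3 control libraries in each count. The summed share was 2.74, 3.62 and 2.81% with siMFN1, 2.91, 3.34 and 2.64% with siMFN2, 2.85, 3.50 and 2.76% with siMFN1+2 and 2.48, 3.62 and 3.71% with siMAVS, beside 2.64, 2.84 and 2.08% in the control, and it overlapped the control in each of the 4 groups.

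With the replicate number as a block in a fit of the 2 groups compared, more members passed. That fit called 7 members with siMFN1, all higher and with RPS27, RPSA, RPLP0, RPS12 and RPL27A among them, beside 9.25% of all genes higher and 8.67% lower. It called 15 with siMFN2, all higher, beside 7.57% and 7.19%, and 12 with siMFN1+2, all higher, beside 9.12% and 8.88%. The members' share was close to that of all genes with siMFN1 and above it with siMFN2 and siMFN1+2. RPSA, RPS27, RPLP0 and RPL27A were among those called in each of the 3. With the block in the fit of all groups, 3, 0 and 2 members passed.

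MKI67 had 11.1, 20.3 and 37.0 CPM with control siRNA and 34.8, 38.6 and 109.7 with siMFN1, 35.4, 26.7 and 73.2 with siMFN2, 28.6, 27.6 and 68.8 with siMFN1+2 and 10.2, 30.0 and 38.1 with siMAVS. Mitochondrially encoded genes made up 4.93, 3.79 and 3.81% of counts in the control and 0.721, 1.10 and 0.383% with siMFN1+2. Their part in the members' values was not tested. Of the other lists, only EIF4B, a translation initiation factor with a TOP mRNA, passed besides the targeted genes, with siMAVS (log2 fold change 0.55, SE 0.115, adjusted p = 0.0458).

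In doxorubicin-treated SK-MEL-103, 0 of 77 members passed with any siRNA in edgeR without the replicate block or in DESeq2. Among all genes, 0.0279% were higher and 0.0947% lower with siMFN1, 0.00557% and 0.0613% with siMFN2, 0.0334% and 0.206% with siMFN1+2, and 0% and 0.1% with siMAVS. DESeq2 called 0.303%, 0.117%, 0.385% and 0.151% of genes in either direction. Members with an unadjusted p below 0.05 in edgeR numbered 0, 4, 0 and 2, beside 5.73%, 3.43%, 4.11% and 3.62% of all genes, and the members' medians were -0.07, 0.11, 0.06 and 0.06. RPSA had 873, 770.2 and 879.6 CPM with control siRNA and 745, 703 and 928 with siMFN1, 907, 904 and 1007 with siMFN2, 862, 714 and 1003 with siMFN1+2 and 954, 783 and 1005 with siMAVS, and only the siMFN2 libraries all lay above the control. Its 95% intervals on the log2 scale ran from -0.40 to 0.25, -0.15 to 0.49, -0.26 to 0.38 and -0.16 to 0.48.

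The blocked fit of 2 groups called mostly lower members for siMFN1 in SK-MEL-103 and higher ones for siMFN2. For siMFN1 it called 15, 13 lower, among them RPL17 (-0.39) and RPS12 (-0.21), and 2 higher, RPL12 (0.14) and RPS27 (0.13), beside 8.99% of all genes higher and 9.96% lower. For siMFN2, where 1 library carries no number and was left out so that 2 pairs remain, it called 14, all higher, among them RPL26 (0.32), RPS3A (0.30), RPL7 (0.26) and RPSA (0.23), beside 2.09% of all genes higher and 2.37% lower. For siMFN1+2 it called RPL12 alone (0.23 higher), beside 4.03% higher and 4.45% lower, and for siMAVS none. The sizes were all under 0.4 on the log2 scale.

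In the fit without the replicate block, no ribosomal protein gene passed the test with either mitofusin compound. That fit and its 95% intervals leave out the pairing of these libraries, and the blocked fit is given below. With MFI8 and with BI, 0 of 77 members passed in edgeR and in DESeq2, and of all 19056 genes tested 0% were higher and 0% lower in edgeR, while DESeq2 called 0.00525% with MFI8 and 0% with BI. The doses differ, MFI8 at 20 µM and BI at 10 µM, and the test of MFI8 against BI gave 0 of 77 and 0% of all genes in each direction. Members with an unadjusted p below 0.05 numbered 0 with MFI8, 1 with BI and 0 between them, beside 1.95%, 0.918% and 1.71% of all genes. The members' log2 fold changes ran from -0.21 to 0.11 with MFI8 and from -0.37 to 0.17 with BI, and the widest 95% intervals reached from -0.84 to 0.88 and from -1.05 to 0.77.

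RPSA had 409, 569 and 441 CPM in DMSO, 421, 559.7 and 466 CPM with MFI8 and 419.7, 540.1 and 434 CPM with BI, with library 2 highest in each group. Without the replicate block, the 95% interval of its log2 fold change was -0.30 to 0.36 with MFI8 and -0.35 to 0.30 with BI. For MFI8 against BI it was -0.27 to 0.38. RPLP0 had 675, 988 and 715 CPM in DMSO, 708, 970.5 and 769 CPM with MFI8 and 710.4, 961 and 749 CPM with BI, in the same pattern. The summed share was 2.43% ± 0.0754 (SD, n = 3) in DMSO, 2.56% ± 0.0494 (SD, n = 3) with MFI8 and 2.55% ± 0.0403 (SD, n = 3) with BI. In the blocked fit of 2 groups, RPL34, a large subunit protein, passed with BI (0.17 higher), beside 1.42% of all genes higher and 2.42% lower, and none passed with MFI8. RPL34 had 107, 107 and 106 CPM in DMSO and 119, 117 and 123 CPM with BI, all BI libraries above DMSO.

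**Figure D5:**
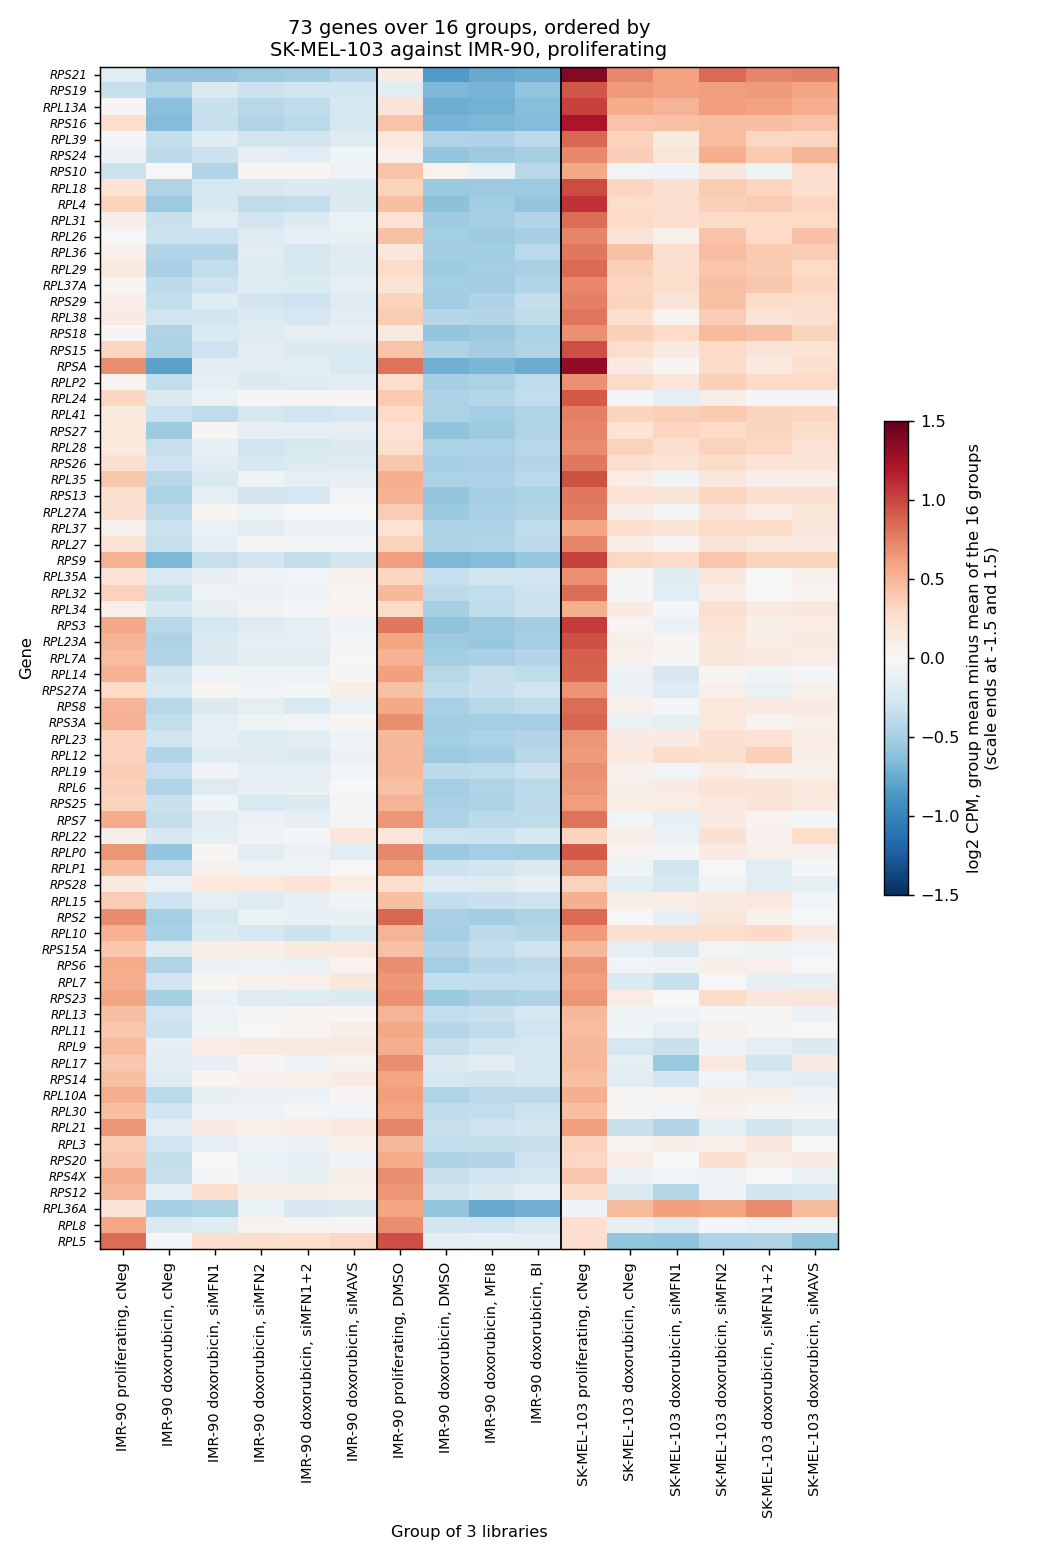
Mean log2 CPM of 73 of the genes (y axis, ordered by the difference between the proliferating lines) in the 16 groups (x axis), as the deviation from the gene's mean over the groups, with a colour scale that ends at -1.5 and 1.5. The proliferating column is the highest of each experiment for nearly all genes, doxorubicin-treated IMR-90 columns are lowest, and RPL5 at the foot differs between the lines in the direction opposite to RPS21 at the top.

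Over the 16 group means, 57 members were highest in proliferating SK-MEL-103 and 19 in proliferating IMR-90 in DMSO. The lowest mean was in doxorubicin-treated IMR-90 in DMSO for 51 and with MFI8 for 13. RPS21 varied most, with an SD of 0.73 of the log2 group means, followed by RPSA (0.60), RPS16 (0.58), RPL13A (0.58) and RPS19 (0.56). RPS28 (0.19), RPL22 (0.21), RPL3 (0.26), RPL35A (0.26) and RPS10 (0.27) varied least.

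Per kilobase of merged exon, RPL13A (614 CPM per kilobase), RPL41 (605), RPS2 (539) and RPS12 (424) were among the most abundant members. RPS10 (0.627), RPL36A (0.893), RPL17 (4.48) and RPS29 (9.81) were among the least abundant. With the length of the principal transcript in place of merged exons, a choice made after the values were seen, RPS2 (1321) came before RPL13A (1231). Of the 5 highest 3 were the same, and RPL41 (941) and RPS12 (516) left them. Of the 5 lowest 4 were the same, and RPS29 (143) left them.

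Other genes of the ribosome's supply chain were followed from lists set beside the members. Among all genes tested after doxorubicin, 24.4% fell and 27.4% rose in IMR-90 on day 7. In SK-MEL-103 30.6% fell and 29.8% rose, and in IMR-90 on day 9 27.1% and 28.8%. Of 17 other TOP mRNAs tested, 16 fell in IMR-90 on day 7, 16 in SK-MEL-103 and 15 in IMR-90 on day 9, and none rose. HNRNPA1, an RNA-binding protein, changed by -2.11, -1.46 and -2.05, and the nucleolar chaperone NPM1 by -1.38, -1.75 and -1.68. The elongation factor EEF2 fell least in SK-MEL-103 (-0.46) and EEF1B2 in IMR-90 on day 7 (-0.37). Medians of the list were -0.71, -0.69 and -0.87, close to those of the members.

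Of 39 genes for ribosome assembly and ribosomal RNA synthesis, 29, 36 and 34 fell and none rose, with medians of -0.97, -0.82 and -1.21. FBL, the methyltransferase fibrillarin, had 151, 93.7 and 133 CPM in proliferating IMR-90 and 22.5, 21.1 and 25.2 CPM after doxorubicin, without overlap (log2 fold change -2.43, SE 0.217, adjusted p = 5.96e-07). It changed by -2.49 in SK-MEL-103 and -2.32 on day 9. UTP20, of the small subunit processome, changed by -2.28 in IMR-90 on day 7, and NOP58, a partner of fibrillarin, by -1.49 in SK-MEL-103. Among 7 dedicated chaperones that escort single ribosomal proteins, 4, 6 and 7 fell, led by GRWD1, the chaperone of RPL3, in IMR-90 (-1.55 on day 7 and -1.65 on day 9) and BCCIP, the chaperone of RPL23, in SK-MEL-103 (-1.24).

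Of 10 regulators of ribosomal protein mRNAs, 5 fell in each experiment. LARP1, which binds TOP tracts, fell by 0.94, 0.47 and 0.82, and EIF4EBP1, a repressor of cap-dependent translation, changed by -1.48 and -2.06 in IMR-90. MYC, a transcriptional driver of ribosome production, fell in SK-MEL-103 (-1.71), where EIF4EBP2 rose (0.45). FAU, which encodes a ribosomal protein fused to a ubiquitin-like protein, fell in SK-MEL-103 (-0.65) and on day 9 (-0.41), and did not pass the threshold on day 7 in IMR-90 (-0.27). Of 77 mitochondrial ribosomal proteins, 51, 64 and 65 fell, with medians of -0.60, -0.71 and -0.84, and MRPS24 rose in SK-MEL-103 (0.94).

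Of the 8 paralogs that the rule left out, RPL3L and RPL10L were below the filter. RPS27L, a p53 target and close copy of RPS27, rose in all 3 experiments while RPS27 fell. It had 107, 86.8 and 107 CPM in proliferating IMR-90 and 170.2, 138 and 123 CPM after doxorubicin (log2 fold change 0.55, SE 0.123, adjusted p = 0.00187), and it changed by 0.41 in SK-MEL-103 and 0.31 on day 9. RPL39L, the copy of RPL39 known from testis, had 22.7, 25.3 and 19.4 against 2.54, 2.11 and 2.90 CPM (log2 fold change -3.14, SE 0.454, adjusted p = 5.23e-05), and changed by -1.76 and -2.49 in the other experiments. RPL22L1, the copy of RPL22, changed by -1.76, -0.67 and -2.31. RPL26L1 (-1.07, -0.78 and -1.08) and RPL7L1 (-0.81, -0.72 and -1.07) fell in all 3, and RPL36AL fell on day 7 in IMR-90 (-0.32) and in SK-MEL-103 (-0.38).

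Between the proliferating lines, genes of these lists passed in both directions, beside 23.9% of all genes higher and 28% lower in SK-MEL-103. RPL39L was lower (-2.47) and RPS27L (0.89) and RPL26L1 (0.51) higher in SK-MEL-103, as was FAU (0.50). Of the 17 other TOP mRNAs, 2 were higher, EIF3H (1.19) and EIF4B (0.50), and 3 lower, with PABPC1 lowest (-0.69). Of the 39 assembly genes, 4 were higher and 4 lower, and the list's median was 0.04 against 0.47 for the members.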

How the data were processed

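RNA was sequenced from 48 libraries of IMR-90 and SK-MEL-103 cells, in 16 groups of 3. The authors deposited 1 table of raw read counts per gene, which is the unit used here. Per the labels' protocols, libraries came from extracted total RNA with a stranded mRNA kit. Per the submitters' processing notes, Trim Galore 0.6.7, STAR 2.7.10a, featureCounts and the GRCh38 genome were used. The annotation release, the strand setting and the treatment of reads that match several genes or places are not given in the sources used here. Such reads limit the values of members with near-identical pseudogenes or overlapping genes. Positions and lengths came from GENCODE release 29, which matched 46876 of 48898 rows, and start windows from RefSeq (GRCh38.p14). Rows without a gene symbol held 0.000234% of counts and were left out. Depth ran from 15206115 to 79204217 counts per library, and no pair of libraries within a group agreed within sampling noise (lowest chi-square per degree of freedom 11.1 over 48 pairs).

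Each experiment was fitted with all its groups in edgeR 4.0.16 (limma 3.58.1, R 4.3.3), with filterByExpr, TMM scaling and the quasi-likelihood test. All genes were tested, p-values were Benjamini-Hochberg adjusted over all of them, and genes were called at an adjusted p below 0.05. The lines were compared in 1 fit of both siRNA experiments. Fold changes are log2, SEs were derived from the quasi-likelihood F statistic, and intervals are 95%. Printed CPM values use TMM factors over all 48 libraries, and shares use each library's total. Alternatives were DESeq2 1.42.0, relative log expression scaling, scaling without members and mitochondrially encoded genes, no low-count filter, the replicate number as a block, fits of only the libraries compared, a term for the library number, and leaving out each library. Tables were handled in Python 3.11.15 with pandas 2.3.3, numpy 2.4.6 and scipy 1.17.1. The fitting script was tested on simulated data.

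Libraries with the same number were taken as paired where every pair's deviations from the group means correlated above 0.1 across genes. This held for siMFN1, siMFN2 and siMFN1+2 in IMR-90 (r from 0.49 to 0.83), for siMFN1, siMFN1+2 and siMAVS in SK-MEL-103 (0.31 to 0.75) and for all comparisons of the compound experiment (0.16 to 0.96). It did not hold for doxorubicin against proliferating cells in either siRNA experiment or for siMAVS in IMR-90.

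The members, lists and tests were chosen with earlier results of these data known. The genes named were the 4 highest and 4 lowest called members of a comparison, a fixed set (RPL5, RPL11, RPS6, RPLP0, RPL13A, RPL22, RPL23, RPS3, RPS27, RPS27A, RPL41, RPSA), the 5 with the largest and smallest SD over groups, the 5 highest and lowest per length, every paralog, the targeted genes, and up to 2 called genes at each end of each list. Members named because they missed a threshold, or from another fit or a low count, and MKI67, CDKN1A and a few roles named beside them, were chosen after their values were seen. A few genes are not reported here by name and are left out of the figures that name genes, while counts and medians over the members include them.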

Additional observations from a re-analysis of the deposited data

Results flagged for a closer look

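The effect of doxorubicin differed between SK-MEL-103 and IMR-90 for 1 member by the test of the difference itself. For RPL36A the effect was 1.21 higher in SK-MEL-103 on the log2 scale. Its level was between 2.10 and 5.19 CPM in all 12 libraries of the comparison, and 77.6% of its exonic bases also belong to a readthrough gene on the same strand. The call was lost without library 1 of proliferating IMR-90.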

How the results depend on the processing

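The count of members that fell after doxorubicin was 52 to 71 in IMR-90 on day 7 over fits that left out 1 library, 74 to 76 in SK-MEL-103 and 74 to 76 in IMR-90 on day 9. In IMR-90 on day 7 it was 41 with only the libraries compared and 14 with the replicate block in that fit, where the numbers do not pair the libraries. For siMFN1 in IMR-90 (1 member) the counts were 3 with the replicate block, 3 with DESeq2, 2 without the low-count filter, 3 with a term for the library number, 0 with only the libraries compared, 7 with the block in a fit of 2 groups, and 0 to 1 without single libraries. For siMFN2 they were 2 with DESeq2 and 15 with the block in 2 groups. For siMFN1+2 they were 2 with the block, 4 with DESeq2, 1 without the filter, 2 with the library number and 12 with the block in 2 groups. For siMAVS they were 5 with DESeq2 and 2 with the library number. In SK-MEL-103 the block in 2 groups gave 15 members for siMFN1, 14 for siMFN2, all higher, without the library that carries no number, and 1 for siMFN1+2, and with BI it gave 1. The difference between the lines in the effect of doxorubicin gave 3 with the block (without that library), 4 with DESeq2, 3 with relative log expression scaling, 3 with scaling without members and mitochondrial genes, and 1 to 7 without single libraries. Proliferating lines gave 36 to 51 members without single libraries. For the remaining siRNA and compound comparisons, leaving out single libraries gave 0 members throughout. On counts outside mitochondrially encoded genes, the share after doxorubicin in the compound experiment was 2.52% in DMSO and 2.65% with MFI8 and with BI. The shares of all genes called are not given here for fits without single libraries or with only the libraries compared. The causes were not tested. The block changed no other call of a paired comparison. Of the named members' values recomputed, 2729 kept their side of the threshold, 48 passed it newly and 67 no longer passed it. None that passed in either fit changed direction, and direction was not compared where a value passed in neither. Depth limits RPS10, RPL36A and RPL17 most among the members named.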
